A study of Mus musculus with 2 samples.

Results

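The genes described here encode the enzymes that turn arachidonic acid into prostaglandins and thromboxane, together with the enzyme that inactivates them. They were chosen by name, and all 10 (Pla2g4a, Ptgs1, Ptgs2, Ptges, Ptges2, Ptges3, Ptgds, Ptgis, Tbxas1 and Hpgd) were found among the 16302 genes of the joined tables. The study sequenced RNA of primary astrocytes cultured from the dentate gyrus (DG) of adult C57BL/6 mice, with 1 library from wild type (WT) mice and 1 library from β-arrestin 1 (β-arr1) knockout (KO) mice. β-arr1, the product of Arrb1, is a scaffold protein of G protein-coupled receptor signaling, and the comparison asks which transcripts differ in astrocytes that lack it. The knockout affects every cell type of the mouse, and the cDNA of each genotype was pooled into its library, so differences between animals cannot be seen. With 1 library per genotype no value below has a replicate error, and neither a test of the genotype nor a p-value can be given. The targeted gene Arrb1 stood at 7.62 FPKM in WT astrocytes and 2.72 FPKM in KO astrocytes, a ratio of 0.358.

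Prostaglandin synthesis starts when a phospholipase A2 releases arachidonic acid from membrane phospholipids. A cyclooxygenase then makes the unstable intermediate prostaglandin H2, from which a terminal synthase makes prostaglandin E2, prostaglandin D2, prostacyclin or thromboxane A2, and 15-hydroxyprostaglandin dehydrogenase ends the signal. In the brain, these lipids act between glia, vessels and neurons in inflammation, fever and the control of blood flow.

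Levels are given in FPKM (fragments scaled to the transcript length and to the mapped fragments of the library), which is per length and so allows levels of different genes to be set side by side. The FPKM ratio of β-arr1 KO vs. WT is given with a 95% interval, which was computed from the estimated number of fragments and holds counting error alone, not the spread between cultures. A gene was counted as past a limit when its ratio was above 3/2 or below 2/3, the limits of the study. The WT and KO libraries held an estimated 9.46 M and 9.76 M mapped fragments, respectively. Over the 12171 genes that were listed in both tables and reached 1 FPKM in either library, the median ratio was 1.01.

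Of the 10 genes, 3 lay below 2/3 in β-arr1 KO (Ptges, Ptgds and Ptgis), 0 lay above 3/2 and 7 lay within the limits. Over all 12646 genes that reached 1 FPKM in either library, 8.28% lay below 2/3, 9.56% above 3/2 and 17.8% past either limit. All 10 genes had at least 1 FPKM in both libraries, and over the 11622 genes of that kind 5.35% lay below 2/3, 6.45% above 3/2 and 11.8% past either limit. With a minimum of 5 FPKM in either library, which Ptgds does not reach, these shares were 5.74%, 6.81% and 12.5%. The ratio was below 1 for 8 of the 10 genes and for 47.0% of the 12646 genes. The median log2 ratio was -0.38 over the 10 genes and 0.02 over those of the 12646 genes that were listed in both tables. The 3 genes below the limit all encode terminal synthases, one each for prostaglandin E2, prostaglandin D2 and prostacyclin, whereas the gene with the highest level, the inducible cyclooxygenase Ptgs2, was higher in β-arr1 KO.

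**Figure D1:**
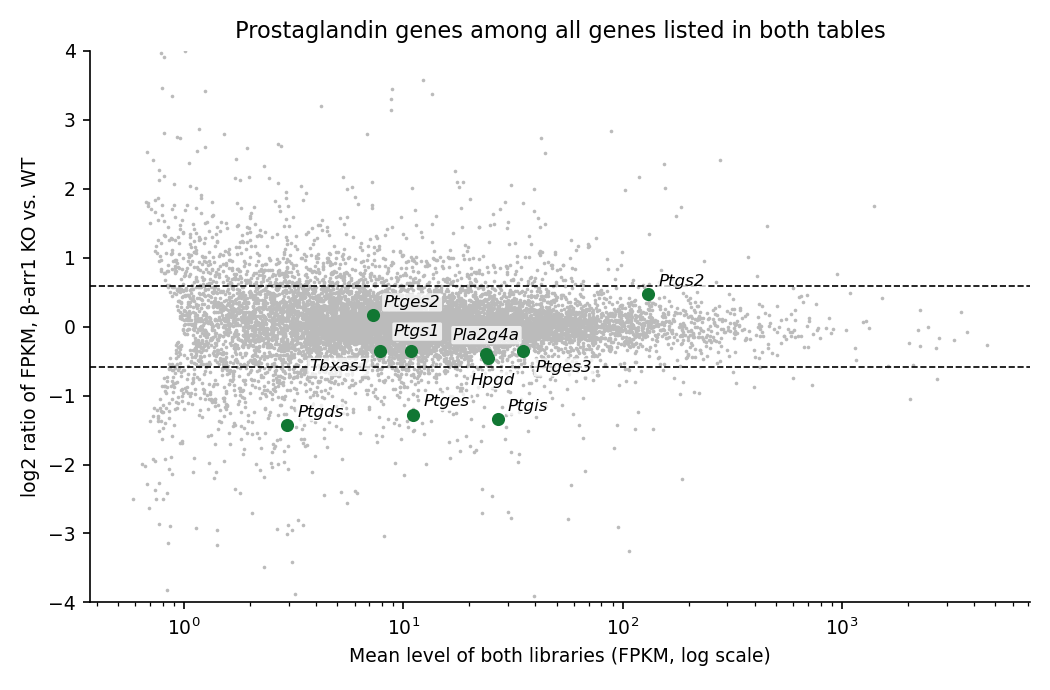
Log2 ratio of FPKM, β-arr1 KO vs. WT, against the mean level of both libraries (FPKM, log scale) for 12171 genes listed in both tables with at least 1 FPKM in either library (grey, each point 1 gene, 21 genes outside the axis range) and the 10 prostaglandin genes (green). Dashed lines mark the limits 3/2 and 2/3; Ptges, Ptgds and Ptgis lie below the lower line and Ptgs2 lies just under the upper line.

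The bases before the transcription start of Ptges and Ptgds are shown because both genes lay below 2/3, and those of Ptgs2 because it is the most abundant of the genes and went the other way. Each sequence holds the 250 bases upstream of the start in RefSeq (GRCm38.p6, another build than that of the loci given below), read 5′ to 3′ on the strand of the gene. The Ptges window is chr2:30903298-30903547 (minus strand), the Ptgds window is chr2:25469750-25469999 (minus strand), and the Ptgs2 window is chr1:150099781-150100030 (plus strand). Capitals mark a GC box (GGGCGG) in Ptges and Ptgs2 and an AP-1 site (TGANTCA) in Ptgds.
Ptges: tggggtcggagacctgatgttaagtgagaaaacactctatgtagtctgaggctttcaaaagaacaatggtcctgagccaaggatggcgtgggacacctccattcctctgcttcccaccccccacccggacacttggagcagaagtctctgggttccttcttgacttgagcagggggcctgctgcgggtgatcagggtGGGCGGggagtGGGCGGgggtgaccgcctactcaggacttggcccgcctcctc
Ptgds: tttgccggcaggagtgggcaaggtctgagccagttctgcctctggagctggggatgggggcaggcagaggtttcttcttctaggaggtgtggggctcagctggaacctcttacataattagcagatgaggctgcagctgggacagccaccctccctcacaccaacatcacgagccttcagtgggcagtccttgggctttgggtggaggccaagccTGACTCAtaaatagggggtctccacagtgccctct
Ptgs2: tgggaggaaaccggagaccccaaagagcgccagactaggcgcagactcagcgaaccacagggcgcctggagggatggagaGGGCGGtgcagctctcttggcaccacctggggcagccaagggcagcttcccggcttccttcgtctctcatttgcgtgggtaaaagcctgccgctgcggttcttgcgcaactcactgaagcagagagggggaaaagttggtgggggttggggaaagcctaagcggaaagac

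The Ptges sequence held 2 GC boxes, at 53 to 48 and at 42 to 37 bases before the start, and the Ptgs2 sequence held 1, at 170 to 165 bases before the start. The Ptgds sequence held 1 AP-1 site at 35 to 29 bases before the start. RefSeq upstream sequences were matched for 9 of the 10 genes, in 10 windows since Pla2g4a has 2 starts, and Ptgis is named only. The motifs searched on both strands were the TATA box (TATAAA, in 2 of the 10 windows and 12.4% of all 32851 windows of the same length), the CCAAT box (CCAAT, 0 and 33.8%), the GC box (4 and 32.7%), the E box (CACGTG, 1 and 6.02%), the AP-1 site (2 and 6.75%), the core of the cAMP response element (CGTCA, 0 and 17.8%) and the direct repeat of AGGTCA with 1 base between its copies, which PPARγ and related receptors bind (0 and 0.0335%). The windows with a GC box belonged to Ptges, Ptges3, Ptgs2 and Hpgd, so genes on both sides of the lower limit held it. Tbxas1 also held a match to the AP-1 pattern TGANTCA, at 61 to 55 bases before the start. Its letters were TGATTCA, against TGACTCA in Ptgds. Such a match describes the letters and is not evidence of binding, and a motif outside the window was not searched. The bases that follow the RefSeq start of Ptgs2 and Ptges2 were not found in their GENCODE transcripts, so these 2 windows may lie off the start used in the deposited tables.

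The first step was represented by Pla2g4a, which encodes the cytosolic phospholipase A2 that prefers arachidonic acid (chr1:151676752-151808414, minus strand; loci are of mm9). It stood at 27.2 FPKM in WT astrocytes and 20.6 FPKM in KO astrocytes, from an estimated 693 and 542 fragments. The level was lower in β-arr1 KO, with a ratio of 0.758 (95% interval 0.676 to 0.849), and lay within the limits. Its locus ends 139 kb before that of Ptgs2 on the same chromosome, and the ratios of these neighbours were on opposite sides of 1.

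Ptgs1 encodes the constitutive cyclooxygenase COX-1 (chr2:36085946-36109026, plus strand). It stood at 12.1 FPKM in WT astrocytes and 9.50 FPKM in KO astrocytes (310 and 251 fragments), a ratio of 0.785 (95% interval 0.662 to 0.930). Ptgs2 encodes the inducible cyclooxygenase COX-2 (chr1:151947076-151955298, plus strand). It stood at 110 FPKM in WT astrocytes and 152 FPKM in KO astrocytes (4140 and 5908 fragments), a ratio of 1.38 (95% interval 1.33 to 1.44). The 2 cyclooxygenases thus differed in direction, and the Ptgs2 interval lay wholly above 1 and wholly below 3/2, so that the gene stayed within the limits. Of all genes, 12.6% had a higher ratio than Ptgs2. Ptgs2 was expressed above 96.6% of the listed genes in WT and 97.8% in β-arr1 KO. The level of Ptgs2 was 9.08 times that of Ptgs1 in WT and 16.0 times in β-arr1 KO.

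**Figure D2:**
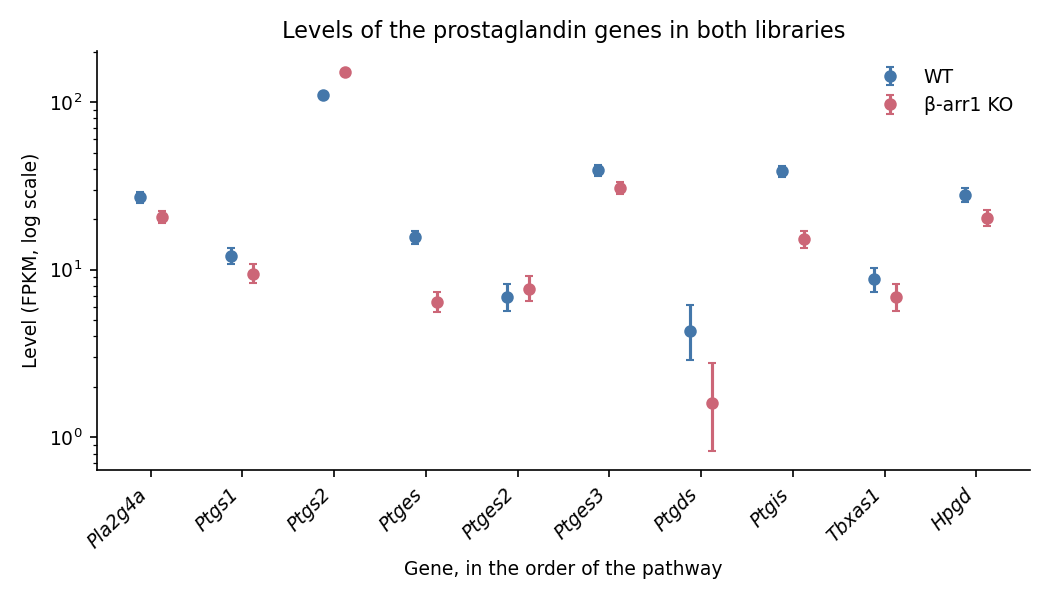
Level of each gene in FPKM (log scale) in the WT library (blue) and the β-arr1 KO library (red), ordered by step of the pathway; bars are 95% Poisson intervals of the estimated fragments (counting error only). Ptgs2 is highest in both libraries, at 110 and 152 FPKM, and Ptgds lowest, at 4.30 and 1.60 FPKM.

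The 3 prostaglandin E synthases differed from one another. Ptges encodes the inducible microsomal synthase that works with COX-2 (chr2:30744991-30758817, minus strand), and it stood at 15.6 FPKM in WT astrocytes and 6.45 FPKM in KO astrocytes (515 and 220 fragments). The ratio was 0.413, and its interval (0.351 to 0.484) lay wholly below 2/3. Of all genes, 3.38% had a lower ratio. Ptges was above 70.0% of the listed genes in WT and above 47.4% in β-arr1 KO. Ptges2, the membrane-associated synthase (chr2:32251410-32258260, plus strand), stood at 6.88 FPKM in WT astrocytes and 7.72 FPKM in KO astrocytes (116 and 134 fragments). Its ratio of 1.12 had an interval from 0.868 to 1.45, so that the counting error covers both directions. Ptges3, the cytosolic synthase that is also the HSP90 cochaperone p23 (chr10:127496038-127514310, plus strand), stood at 39.4 FPKM in WT astrocytes and 30.8 FPKM in KO astrocytes (686 and 553 fragments). Its ratio was 0.782 (95% interval 0.697 to 0.876). Ptges made up 25.2% of the summed FPKM of the 3 genes in WT and 14.4% in β-arr1 KO, whereas Ptges2 made up 11.1% and 17.2%. The order of these 2 genes was therefore Ptges over Ptges2 in WT, and in β-arr1 KO their intervals overlapped. The ratio of Ptgs2 to Ptges, the inducible enzymes of consecutive steps, was 7.03 in WT and 23.6 in β-arr1 KO.

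Ptgds encodes the lipocalin-type prostaglandin D synthase, a secreted protein (chr2:25322232-25325269, minus strand). It stood at 4.30 FPKM in WT astrocytes and 1.60 FPKM in KO astrocytes, the lowest level of the 10 genes in each library. These values came from an estimated 30 and 12 fragments, and the ratio of 0.372 had an interval from 0.173 to 0.748. The gene was lower in β-arr1 KO beyond counting error, but the interval crossed 2/3. With the longest annotated transcript of any type, the interval was 0.203 to 0.652, wholly below 2/3. With the shortest protein-coding transcript, it was 0.159 to 0.802. Whether the gene was past the limit beyond counting error thus depended on the transcript length taken. Hpgds, the hematopoietic prostaglandin D synthase of microglia and mast cells, stood at 9.58 FPKM in WT astrocytes and 7.51 FPKM in KO astrocytes, a ratio of 0.784 (95% interval 0.660 to 0.932).

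Ptgis encodes prostacyclin synthase (chr2:167027322-167066152, minus strand). It stood at 38.6 FPKM in WT astrocytes and 15.2 FPKM in KO astrocytes (710 and 289 fragments), a ratio of 0.394 with an interval (0.343 to 0.452) wholly below 2/3. It ranked next to Ptges3 in WT, where the intervals of both genes overlapped, and in the fifth place in β-arr1 KO, below Pla2g4a and Hpgd. Of all genes, 3.23% had a lower ratio than Ptgis, and 3.06% had a lower ratio than Ptgds. Tbxas1 encodes thromboxane A synthase, the enzyme that competes for the same substrate (chr6:38868985-39034578, plus strand). It stood at 8.75 FPKM in WT astrocytes and 6.87 FPKM in KO astrocytes (151 and 123 fragments), a ratio of 0.785 with an interval (0.614 to 1.003) that just included 1. The level of Ptgis was 4.41 times that of Tbxas1 in WT and 2.21 times in β-arr1 KO.

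**Figure D3:**
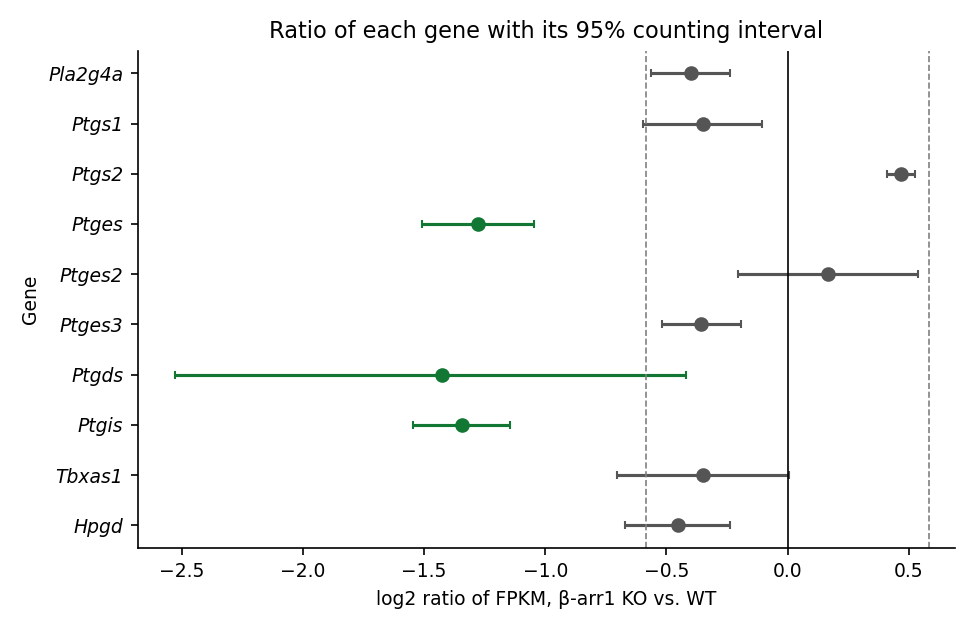
Log2 ratio of FPKM, β-arr1 KO vs. WT, of each gene with its 95% counting interval (Clopper-Pearson on the estimated fragments); dashed lines mark 3/2 and 2/3, and green marks the genes past a limit. The intervals of Ptges and Ptgis lie wholly below 2/3, that of Ptgds crosses it, and those of Ptges2 and Tbxas1 include a log2 ratio of 0.

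Summed over the 7 terminal synthases (the 6 above and Hpgds), the level was 123 FPKM in WT astrocytes and 76.1 FPKM in KO astrocytes. The share of Ptgis was 31.3% in WT and 19.96% in KO astrocytes, that of Ptges 12.7% and 8.47%. Ptges3 had a share of 32.0% in WT and 40.4% in KO astrocytes, Ptges2 one of 5.59% and 10.1%. The ratios of Ptges, Ptgds and Ptgis lay between 0.372 and 0.413, and those of the other 4 synthases between 0.782 and 1.12. Without Ptges3, which is also a cochaperone, the sum was 83.7 FPKM in WT astrocytes and 45.4 FPKM in KO astrocytes.

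**Figure D4:**
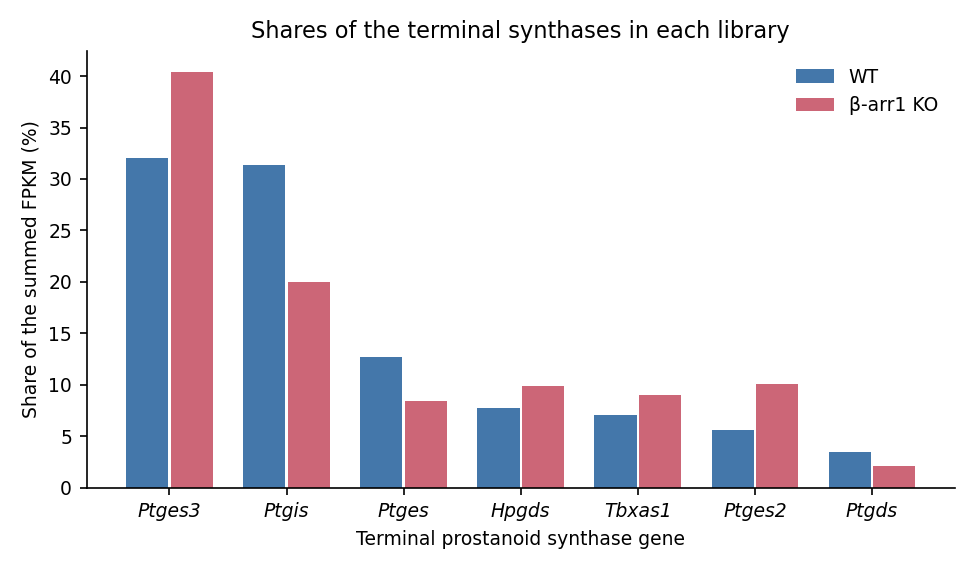
Share of each terminal synthase in the summed FPKM of the 7 synthases (percent) in the WT library (blue) and the β-arr1 KO library (red); each bar is 1 library and has no error bar. Ptgis goes from 31.3% in WT to 19.96% in β-arr1 KO, and Ptges3 from 32.0% to 40.4%.

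Hpgd encodes 15-hydroxyprostaglandin dehydrogenase, which inactivates prostaglandins (chr8:58773349-58799843, plus strand). It stood at 27.99 FPKM in WT astrocytes and 20.4 FPKM in KO astrocytes (413 and 311 fragments), a ratio of 0.730 (95% interval 0.628 to 0.848). The synthase Ptges was at 0.558 times the level of Hpgd in WT and at 0.316 times in β-arr1 KO. The ratios of Pla2g4a, Ptgs1, Ptges3, Tbxas1 and Hpgd lay between 0.730 and 0.785. Summed over the 10 genes, the level was 291 FPKM in WT astrocytes and 271 FPKM in KO astrocytes (0.933 times), a sum to which Ptgs2 alone gave 110 and 152 FPKM. By counting error, the interval of the ratio left out 1 for 8 of the 10 genes, all but Ptges2 and Tbxas1. The share over all genes was not computed. Among the cell type markers described below, the interval included 1 for 1 of 11 astrocyte markers and 4 of 12 microglia markers. Leaving out 1 was therefore not particular to the 10 genes.

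In WT, the order of levels was Ptgs2, Ptges3, Ptgis, Hpgd, Pla2g4a, Ptges, Ptgs1, Tbxas1, Ptges2 and Ptgds. Counting intervals overlapped between Ptges3 and Ptgis, between Hpgd and Pla2g4a, between Tbxas1 and Ptges2, and between Ptges2 and Ptgds. In β-arr1 KO, the order was Ptgs2, Ptges3, Pla2g4a, Hpgd, Ptgis, Ptgs1, Ptges2, Tbxas1, Ptges and Ptgds. Pla2g4a and Hpgd overlapped, as did each neighbouring pair from Ptgs1 to Ptges. Ptges moved from the sixth to the ninth place and Ptgis from the third to the fifth.

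Of the 10 genes, 5 lie on chromosome 2, including the 3 below 2/3, but they are far apart. Ptges ends 1.49 Mb before Ptges2 starts, and Ptgds starts 10.8 Mb from the end of Ptgs1. The only other gene listed within a locus of the 10 genes was 1700025N23Rik, at 0.143 FPKM within Tbxas1 in WT. The rows of 7 genes had the same bounds in both tables, whereas those of Ptgs1, Ptgs2 and Ptgis were longer in WT. The Ptgs1 row ended at 36107789 in β-arr1 KO, the Ptgs2 row ran from 151947254 to 151955142, and the Ptgis row ran from 167028696 to 167066037. If the transcript behind each row is taken to be as long as its bounds allow (1 length per library, chosen after the data were seen), the ratio of fragments, scaled to the depth of each library, is 0.539 for Ptgs1, 1.28 for Ptgs2 and 0.204 for Ptgis. The ratio of Ptgs1 is then below 2/3, and that of Ptgis is farther below it. Whether the deposited values were scaled to such lengths was not tested.

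Around these genes, 60 genes of the same lipid pathways were examined, of which 46 were in the tables and 30 reached 1 FPKM in either library. Of the 30, 2 lay below 2/3, 1 lay above 3/2, 26 lay within the limits and 1 was listed in one table only. Both prostanoid receptor genes with at least 1 FPKM were within the limits. Ptger4, a receptor for prostaglandin E2, stood at 1.96 FPKM in WT astrocytes and 1.79 FPKM in KO astrocytes (ratio 0.913). Tbxa2r, the thromboxane receptor, stood at 3.32 and 4.23 FPKM (ratio 1.27, 95% interval 0.869 to 1.88). The other 5 receptor genes in the tables were under 1 FPKM in both libraries.

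Among 7 other prostanoid enzymes and transporters, the median log2 ratio was 0.09. Ptgr1, a reductase that degrades prostaglandins after Hpgd, was the highest, at 24.1 FPKM in WT astrocytes and 33.2 FPKM in KO astrocytes, a ratio of 1.38 that was on the other side of 1 from that of Hpgd. The only gene above 3/2 was Ptges3l, a gene similar to Ptges3, at 6.08 FPKM in WT astrocytes and 10.9 FPKM in KO astrocytes (ratio 1.80). Its row overlaps that of Rundc1 (8.58 and 7.996 FPKM), and its fragments were not estimated. Among 7 other phospholipases A2, the highest in WT was the lysosomal Pla2g15, at 20.3 FPKM in WT astrocytes and 17.3 FPKM in KO astrocytes. The highest in β-arr1 KO was Pla2g7, which encodes platelet-activating factor acetylhydrolase, at 14.7 and 18.7 FPKM. The secreted Pla2g5 lay below 2/3, at 1.39 and 0.790 FPKM (ratio 0.567, 95% interval 0.286 to 1.08). Pla2g12a was listed only in β-arr1 KO, at 12.5 FPKM. In WT, the row of its neighbour Casp6 covered its locus at 28.9 FPKM, and both genes together reached 22.2 FPKM in β-arr1 KO, which is 0.768 of the WT value. The 9 genes of other arachidonic acid sources were all within the limits, with a median log2 ratio of 0.10, the highest being the lipase Abhd12 at 86.0 and 83.5 FPKM.

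The leukotriene branch uses the same arachidonic acid. Of its 5 genes with at least 1 FPKM, Ltc4s, which encodes leukotriene C4 synthase, lay below 2/3, at 4.02 FPKM in WT astrocytes and 2.42 FPKM in KO astrocytes (ratio 0.601). Its interval reached from 0.277 to 1.26, so counting error covers both directions. The 5-lipoxygenase Alox5 (5.11 and 3.53 FPKM, ratio 0.691) and its activating protein Alox5ap (42.0 and 29.1 FPKM, ratio 0.694) lay just within the limits, Lta4h stood at a ratio of 0.989 and Mgst3 at 1.32. The median log2 ratio of the 5 genes was -0.53.

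All 11 astrocyte markers of the labelled cell type were expressed, 0 below 2/3 and 4 above 3/2, with Gfap the highest at 189 FPKM in WT astrocytes and 192 FPKM in KO astrocytes. Their summed level was 404 and 431 FPKM. Markers of other cell types were present as well, and in a bulk library fewer cells of a type and less RNA per cell cannot be told apart. In WT and KO, respectively, pericyte and smooth muscle markers summed to 5705 and 5357 FPKM (mostly Tagln and Acta2, 1 of 5 below 2/3), endothelial markers to 94.7 and 94.0 FPKM (Esam the highest at 35.6 and 41.6, 1 of 8 below 2/3 and 2 above 3/2), oligodendrocyte lineage markers to 83.3 and 122 FPKM (Olig1 the highest at 32.6 and 55.96, 3 of 6 above 3/2) and neuron markers to 45.4 and 60.7 FPKM (nearly all Tubb3, within the limits).

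The summed levels of microglia, leptomeningeal fibroblast and choroid plexus markers were lower in β-arr1 KO. The 12 microglia markers summed to 1662 FPKM in WT astrocytes and 1254 FPKM in KO astrocytes (Tyrobp the highest at 317 and 219), with 1 of 12 below 2/3, 11 within the limits and a median ratio of 0.793. The counting interval lay below 1 for 8 of the 12 and included 1 for the other 4, Aif1, Cx3cr1, P2ry12 and Tmem119. Ptgs1, Tbxas1 and Hpgds had ratios of 0.785, 0.785 and 0.784. Those of Ptges3, Pla2g4a and Hpgd were 0.782, 0.758 and 0.730, and those of Alox5 and Alox5ap were 0.691 and 0.694. Which cells of the cultures expressed these genes was not tested. The 10 leptomeningeal fibroblast markers summed to 646 and 342 FPKM, with 6 of the 8 that reached 1 FPKM below 2/3 and 1 above 3/2. Col1a1 was the highest at 420 and 237 FPKM, Lum had no row in the β-arr1 KO table and Slc6a13 none in the WT table. The 6 choroid plexus markers summed to 84.2 and 16.8 FPKM, all 3 that reached 1 FPKM lay below 2/3, and Folr1 was the highest at 53.1 and 13.6 FPKM. The median ratio was 0.257 for choroid plexus, 0.527 for leptomeningeal fibroblast and 0.891 for pericyte and smooth muscle markers. It was 1.30 for endothelial, 1.37 for astrocyte and 1.56 for oligodendrocyte lineage markers, and the 1 neuron marker that reached 1 FPKM had 1.34. Ptgds had a ratio of 0.372, Ptgis of 0.394 and Ptges of 0.413. The part of any of these cell types in the ratios of the prostaglandin genes was not tested. The 4 Y-linked genes examined had no row in the WT table and summed to 8.44 FPKM in β-arr1 KO, so that genotype and the sex of the mice cannot be told apart for any of the 10 genes.

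**Figure D5:**
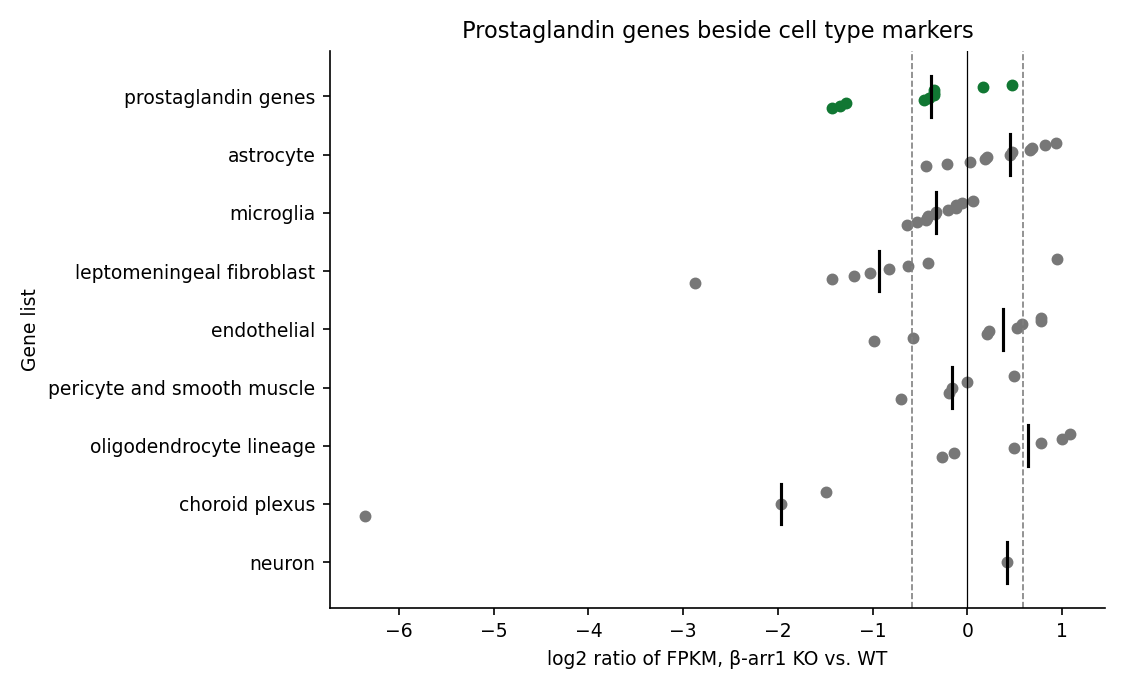
Log2 ratio of FPKM, β-arr1 KO vs. WT, of the 10 prostaglandin genes (green) and of cell type markers that reached 1 FPKM in either library (grey, each point 1 gene); black bars are medians and dashed lines mark 3/2 and 2/3. The medians of leptomeningeal fibroblast and choroid plexus markers lie below the lower limit, and that of the prostaglandin genes (-0.38) lies near that of microglia markers (-0.34).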

How the data were processed

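RNA of cultured DG astrocytes was sequenced as 1 WT and 1 β-arr1 KO library, grouped by the genotype in the labels. According to the methods and processing notes, the authors aligned reads to mm9 with TopHat 1.4.0 and ran Cufflinks. The authors deposited FPKM values, 1 table per library with symbol, NCBI gene number and locus, and read counts were not used here. Tables were joined on the symbol (the highest row of a symbol was taken, a gene not listed was given 0) with Python 3.11.15, pandas 2.3.3 and scipy 1.17.1. Genes that reached 1 FPKM in either library were analysed, and ratios were taken without a pseudocount. To each start 1 was added, since 47.2% (WT) and 47.5% (KO) of starts then equal those of GENCODE on NCBIM37.

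Depth was estimated from 411 (WT) and 428 (KO) genes under 0.15 FPKM, of which 69.8% and 70.6% lay within 5% of a step of 1 to 3 fragments. Fragments per gene rest on the longest protein-coding transcript less 160 bases. The longest transcript of any type was planned but is a retained intron for some genes, so the choice was changed after the annotation was seen. Intervals are Clopper-Pearson at 95%, cover counting error only, and were tested on simulated data. That test took the simulated depth and transcript lengths as known, so errors in either were not tested. How reads shared by several genes were assigned is not given in the sources used here.

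The genes named were the 10 members, Arrb1, pathway genes past a limit, the highest gene of each list, and genes overlapping a member. Others (Ptger4, Hpgds, Alox5, Lta4h, Mgst3, Casp6, Rundc1, Acta2, Aif1, Cx3cr1, P2ry12, Tmem119, Lum, Slc6a13) were named after their values were seen. The members and lists were chosen with earlier results of these data known. Alternatives changed the pseudocount, scaling, minimum level, limits, duplicate rows, overlapping loci and transcript length.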

Additional observations from a re-analysis of the deposited data

How the results depend on the processing

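Each ratio of the 10 genes was recomputed under 8 settings, and 77 of the 80 values stayed within the counting interval. Many of these values could not change. No gene had a second row to sum, only Tbxas1 had an overlapping locus, and 7 genes had the same bounds in both tables. The 3 that moved all came from lengths set by the bounds of the rows (chosen after the data were seen), at 0.539 for Ptgs1, 1.28 for Ptgs2 and 0.204 for Ptgis. These were all the genes on which that setting could act. Over the planned settings, Ptges ranged from 0.408 to 0.448, Ptgis from 0.389 to 0.409, Ptgds from 0.367 to 0.490 and Ptgs2 from 1.37 to 1.39. The number of the 10 genes past a limit was 3 with each other pseudocount, scaling, minimum and limit tried but one, a minimum of 5 FPKM, which leaves out Ptgds and gave 2. With lengths set by the bounds of the rows it was 4, with Ptgs1. That count sets the limits against a ratio of fragments, whereas the FPKM ratio of Ptgs1 was 0.785. The share over all genes was not computed for that setting. Limits of 2 and 1/2 gave 3, with 9.20% of all genes past them. The interval of Tbxas1 (0.614 to 1.003) left out 1 with the longest transcript of any type (0.671 to 0.918), the planned length, and that of Ptgds was then 0.203 to 0.652, wholly below 2/3. The shortest protein-coding transcript widened the intervals, to 0.381 to 1.595 for Tbxas1 and 0.159 to 0.802 for Ptgds. That of Ptges was then 0.268 to 0.624, still wholly below 2/3.

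The pathway genes past a limit were 4 with Pla2g12a counted, but 13 at a minimum of 0.1 FPKM (26.0% of all genes), 17 with no minimum (29.6%), and 2 at 5 FPKM (12.5%), at 1 FPKM in both libraries (11.8%) and with a pseudocount of 1 FPKM (13.0%). Limits of 2 and 1/2 gave 1 (9.20%), against 17.8% of all genes in the values reported. Rescaling shifted log2 ratios by at most 0.018. No paired analysis was possible because each genotype has 1 library. Counting error limits Ptgds most, with an estimated 30 and 12 fragments.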
